A study of Oryctolagus cuniculus with 12 samples.

Results

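The genes described here are the ion channel subunits that could be named on an array of rabbit transcripts, measured in ventricles of fetal rabbit hearts. They are all genes of the array annotation whose current symbol starts with KCN, CACN, SCN, CLCN, RYR, ITPR, TRP or HCN, apart from KCNIP2 and KCNJ8. This gave 42 of the 591 annotated genes, with 109 probes. Every one of them belongs to a known channel family: 18 are potassium channel subunits, 8 belong to voltage-gated calcium channels, 5 are TRP channels, 5 are CLC chloride channels or exchangers and 3 form the epithelial sodium channel, while RYR2, SCN9A and HCN4 are the sole members of their families. The study compared 6 fetuses with intrauterine growth restriction (IUGR), that is, growth below what their age would predict, with 6 control fetuses, numbered in the labels as 6 pairs of 1 IUGR and 1 control sample. The labels call the IUGR samples treatment without saying what was done, so effects of that treatment other than slow growth cannot be told apart from those of IUGR. The sources used here name no strain, age, sex or side of the ventricle, nor what the members of a pair have in common. The p-values of IUGR against control rest on the spread between these 6 pairs. In the limma fit that spread is moderated by the spread of all probes. All 12 ventricles were snap frozen, and 500 ng of RNA from each was labelled with Cy3 and hybridised to an array of its own.

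Ion channels carry the currents of the heartbeat. Sodium channels open the action potential of a ventricular muscle cell, L-type calcium channels, built of a pore subunit with β and α2δ subunits, admit calcium during its plateau, and that calcium opens the ryanodine receptor RYR2, through which the sarcoplasmic reticulum releases the calcium that starts contraction. Potassium channels end the action potential. The transient outward current, which KCND2 and KCND3 help to carry, acts early. The delayed rectifiers of KCNQ1 and KCNH2 with KCNE subunits act later, and KCNJ2 and KCNJ12 hold the resting potential. HCN4 carries the pacemaker current. TRP channels, CLC proteins and epithelial sodium channels have their main known roles in other cells, in endosomes and lysosomes, or in epithelia. Of a list of 30 channel genes known from the heart, 11 were measured. CACNA1C, KCNQ1 and KCNH2, which carry main ventricular currents, were not analysed here.

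No channel subunit passed the adjusted test between IUGR and control ventricles, each gene being read from its brightest probe. In the limma fit with the pair as a block, 0 of the 42 genes passed an adjusted p of 0.05, with adjusted p values from 0.982 to 1. The background was the same, since 0 of 43603 probes (0%) passed, while 1562 had an unadjusted p under 0.05. At an unadjusted limma p under 0.05 there was 1 channel gene, KCNB2, which had lower values in IUGR, where 4.06% of all 591 genes reached that level and 1.69% did so with lower values. All signals are given on the log2 scale. A difference is the IUGR signal less that of its control partner, also in log2, and is written as the mean ± SD over 6 pairs. Of the 42 genes, 25 had a mean difference above 0 and 17 below it, against 51.6% above 0 among all genes, and the median difference was 0.022 against 0.0055 over all genes. The signal ranges of the groups overlapped for all 42, as for all 591 (0% without overlap). Each of the 42 mean differences was smaller than its own SD over the pairs, as were 563 of the 591. This compares sizes on the brightest probes and is not a test. The 11 genes of the heart list had a median difference of 0.011, 7 above and 4 below 0. In bulk tissue, fewer cells of a type and less RNA per cell cannot be told apart.

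**Figure D1:**
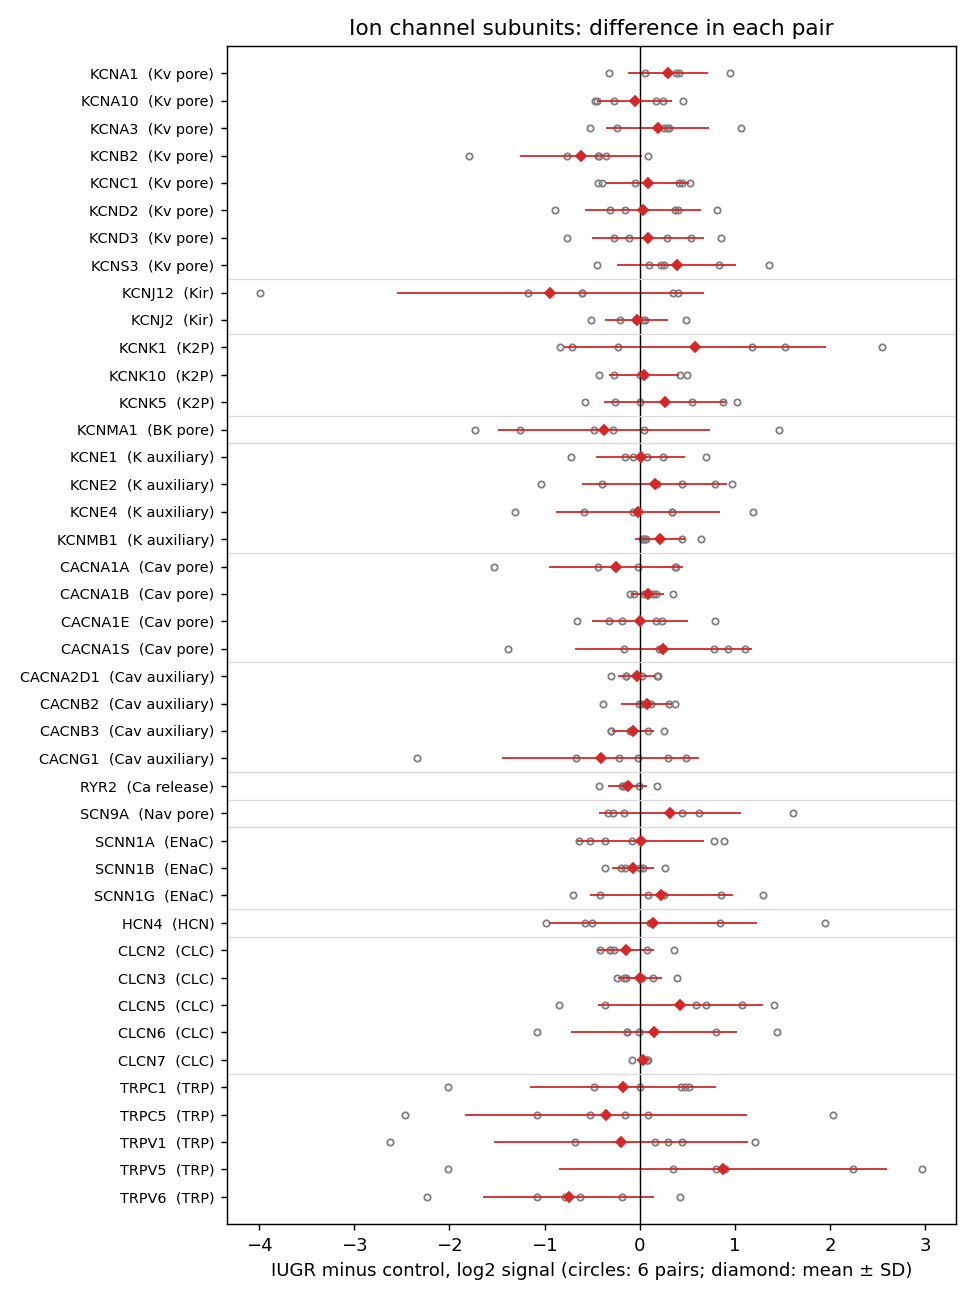
Difference between the IUGR and the control sample of each pair (open circles, log2 signal) for the 42 channel genes, grouped by family, with the mean ± SD over 6 pairs (diamonds). The circles lie on 1 side of 0 in all 6 pairs for KCNMB1 and for no other gene.

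Intervals were narrower for most of the genes read by brighter probes. Of the 42 genes, 27 were read by a probe below the median of all probes, 64.3% against 42.3% of all genes. The 27 spanned a median of 2.23 log2 between their lowest and highest array, and the 15 brighter genes spanned 0.78, while the medians for all genes were 2.04 and 0.96. For 11 of the 15 brighter genes the 95% interval of the difference from the limma fit lay inside -0.5 to 0.5, a bound of about 1.4-fold, which held for 4 of the 27 dimmer ones. The 11 were RYR2, CACNB2, CACNB3, CACNA2D1, CACNA1B, KCNJ2, KCNE1, SCNN1B, CLCN2, CLCN3 and CLCN7. The other 4 brighter genes were KCNMB1, CACNA1A, SCNN1A and TRPC1. Probe brightness is not transcript abundance, so levels of different genes are not ranked here, and detection flags were not used.

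**Figure D2:**
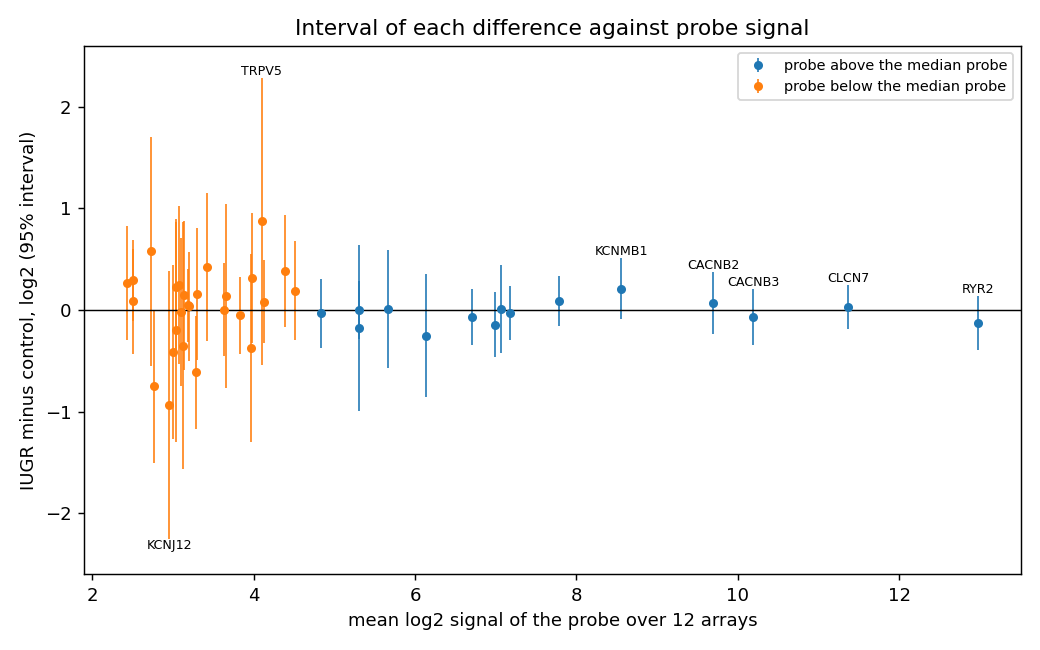
Mean difference with its 95% interval from the limma fit (vertical axis, log2) against the mean log2 signal of the probe over 12 arrays (horizontal axis) for the 42 channel genes. Intervals are narrow for bright probes such as those of RYR2 and CLCN7 and reach beyond 1 log2 for dim ones such as those of KCNJ12 and TRPV5.

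RYR2, the calcium release channel of heart muscle, was read by a bright probe, at percentile 97.4 of all probes. Its signal ran from 12.67 to 13.19 with a median of 12.89 in IUGR ventricles, and from 12.89 to 13.13 with a median of 13.06 in control ventricles. The ranges overlapped, with the lowest values among IUGR samples. The difference was -0.13 ± 0.21, lower in IUGR in 5 of 6 pairs, with a 95% interval of -0.40 to 0.14 and an exact two-sided permutation p of 0.25 over the sign changes of the 6 pairs. All 4 RYR2 probes had a mean below 0, the other 3 from -0.25 to -0.025, and as they read the same 12 RNA samples they are not separate evidence. Without any 1 pair the difference ran from -0.19 to -0.067.

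The β and α2δ subunits of voltage-gated calcium channels had narrow intervals around 0. CACNB2, the main β subunit of the cardiac L-type channel, ran from 9.48 to 9.99 with a median of 9.68 in IUGR ventricles, and from 9.37 to 9.87 with a median of 9.65 in control ventricles. Its difference was 0.072 ± 0.27 (95% interval -0.23 to 0.37), and its 6 probes split, 2 above and 4 below 0. CACNA2D1, the α2δ subunit that brings the pore to the membrane, ran from 6.83 to 7.28 with a median of 7.22 in IUGR ventricles, and from 7.02 to 7.43 with a median of 7.13 in control ventricles. The ranges overlapped, and the difference was -0.031 ± 0.20 (95% interval -0.30 to 0.23), with 3 pairs each way. For CACNB3, another β subunit, the difference was -0.069 ± 0.22, but its other probe gave 0.33. CACNG1, the γ subunit of the skeletal muscle channel, had a dim probe and differed by -0.41 ± 1.03, or by -0.024 without pair 5, whose control sample was the highest at 5.06. Of these 4 genes 1 was above 0 and 3 below, and none passed the test.

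Of the calcium channel pore subunits, CACNA1B (N-type, known from nerve endings) had the narrowest spread, with values between 7.46 and 8.10 over all 12 arrays and a difference of 0.090 ± 0.17. Its other probe was dim, with a mean signal of 2.76, and gave a difference of 0.13. CACNA1A (P/Q-type, also neuronal) was below 0 in all 5 of its probes, with -0.25 ± 0.71 for the brightest. That value rested on pair 4, in which the control sample stood at 7.94, and it was 0.0047 without that pair. CACNA1E (R-type) differed by 0.0055 ± 0.51, and CACNA1S, the skeletal muscle pore, by 0.25 ± 0.93, both from probes below the median. CACNA1S moved to 0.57 without pair 3. Markers of nerve cells that could bear on the neuronal pores were 2 of 20 measured, S100B and TH, with a mean level from 3.89 to 5.41 in IUGR and from 4.22 to 5.06 in controls. Their part in the values was not tested.

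Among 8 pore or silent subunits of voltage-gated potassium channels, 6 had a mean above 0 and 2 below, all from probes below the median. KCNB2, the pore of a delayed rectifier, ran from 2.40 to 3.57 with a median of 2.92 in IUGR ventricles, and from 2.82 to 5.13 with a median of 3.41 in control ventricles. One control sample, replicate 6 at 5.13, stood well above all other samples. KCNB2 had the smallest p of the 42 genes, with a difference of -0.61 ± 0.64, lower in 5 of 6 pairs (limma unadjusted p = 0.0355, adjusted p = 0.982; exact permutation p = 0.0625). All 5 of its probes were below 0, the other 4 from -0.34 to -0.089. Without pair 6 the difference was -0.38. Control replicate 6 was also the sample with the highest mean of the liver markers, of which 6 of 15 were measured. It was 7.14 there, 4.48 to 5.58 in the other controls and 3.95 to 5.65 in IUGR. Probes below the median read 4 of the 6. Of these 6 genes 5 had a mean difference below 0, and none passed the test. Their part in the KCNB2 value was not tested.

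KCNS3, a silent subunit that joins KCNB pores and changes their gating, had values from 3.59 to 5.76 with a median of 4.50 in IUGR ventricles, and from 3.34 to 5.16 with a median of 4.29 in control ventricles. The groups overlapped over most of their ranges, and 5 of 6 pairs were higher in IUGR. The difference was 0.39 ± 0.63, and all 5 probes lay above 0, the others from 0.00081 to 0.72. Its second brightest probe had a limma unadjusted p of 0.0293 and the dimmest 0.00829, neither past the adjusted threshold (adjusted p = 0.982). Both probes were singled out after their values were seen, and 1562 of all 43603 probes had an unadjusted limma p under 0.05. With the mean of its probes the difference was 0.39. Without pair 5 the brightest probe gave 0.19.

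KCND2 and KCND3 are pore subunits of the transient outward current. KCND3 had 1 probe, very dim at percentile 7.39, which ran from 1.96 to 3.53 with a median of 2.43 in IUGR, and from 2.06 to 2.99 with a median of 2.42 in controls. Its difference was 0.087 ± 0.59, with 3 pairs each way, so no difference could be seen at this signal. The brightest KCND2 probe ran from 2.82 to 3.88 with a median of 2.99 in IUGR, and from 2.27 to 4.04 with a median of 3.27 in controls. Its difference was 0.038 ± 0.61, again with 3 pairs each way. The 3 KCND2 probes disagreed: the second gave -0.91 ± 0.68, lower in IUGR in 6 of 6 pairs (limma unadjusted p = 0.00767, adjusted p = 0.982; exact permutation p = 0.0312), and the third 0.41. The second probe was singled out after its values were seen, and all 3 lay between percentiles 29.2 and 35. KCNIP2, which binds these pores and is not counted among the 42, differed by 0.55 ± 0.57 (adjusted p = 0.982).

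The remaining voltage-gated potassium channels were dim. KCNA1, a neuronal pore, ran from 2.33 to 2.95 with a median of 2.68 in IUGR ventricles, and from 1.87 to 2.89 with a median of 2.28 in control ventricles. The IUGR values were higher in 5 of 6 pairs, and the difference was 0.29 ± 0.42 (limma unadjusted p = 0.128), from 1 probe at percentile 7.34. Without pair 4 it was 0.16. KCNA3, known from lymphocytes, differed by 0.19 ± 0.54 and by 0.016 without pair 4. KCNC1, the pore of fast-firing neurons, differed by 0.084 ± 0.44 with 3 of 6 probes above 0, and KCNA10 by -0.053 ± 0.39.

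The inward rectifiers, which set the resting potential of heart muscle, were both below 0. KCNJ2 ran from 4.41 to 5.24 with a median of 4.84 in IUGR ventricles, and from 4.48 to 5.28 with a median of 4.91 in control ventricles. The groups covered the same range, with 3 pairs each way, and the difference was -0.031 ± 0.33 (95% interval -0.37 to 0.31). KCNJ12 ran from 2.06 to 2.78 with a median of 2.56 in IUGR ventricles, and from 2.00 to 6.71 with a median of 3.02 in control ventricles. Control replicate 2, at 6.71, stood far above the other 11 samples, none of which exceeded 3.39. The mean difference was -0.94 ± 1.61 with that sample and -0.33 without pair 2. All 6 IUGR values lay below the control median. Over the 12 arrays KCNJ12 spanned 4.71 log2, the most of the 42 genes. In the same sample the liver marker mean was 5.58 and the skeletal muscle marker mean, 7 of 16 measured, was 6.52, within the range of the other controls. Their part was not tested. KCNJ12 had 1 probe, below the median.

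All 3 potassium channels with 2 pore domains, which leak potassium at rest, had a mean above 0. KCNK1 differed by 0.58 ± 1.38 with 3 pairs each way, and its other 4 probes gave -0.18 to -0.046. KCNK5 (stimulated by alkaline pH) differed by 0.27 ± 0.64 and KCNK10 (opened by stretch and lipids) by 0.046 ± 0.37. All 3 lay below the median probe, KCNK5 at percentile 4.39. For KCNK10 the second probe gave -0.13. KCNMA1, the pore of the large-conductance calcium-activated channel, differed by -0.37 ± 1.11, and by -0.74 without pair 1 and -0.10 without pair 5. Its probe also lay below the median, at percentile 45.4.

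KCNMB1, the β1 subunit of that channel and a marker of smooth muscle, was the only one of the 42 genes with 1 sign in 6 of 6 pairs. This is 1 of 42, and 2.54% of all genes had 1 sign in 6 pairs (2.2% higher and 0.338% lower), so the count is near the background. KCNMB1 ran from 8.43 to 8.79 with a median of 8.69 in IUGR ventricles, and from 8.01 to 8.77 with a median of 8.52 in control ventricles. The groups overlapped, and 3 control samples lay below every IUGR sample. The difference was 0.21 ± 0.27 (1.16-fold), with a 95% interval of -0.089 to 0.51 and an exact permutation p of 0.0312, the smallest that 6 pairs allow (limma unadjusted p = 0.14, adjusted p = 0.982). The mean came mostly from pair 2 at 0.45 and pair 5 at 0.64, was 0.13 without pair 5, and the other 4 pairs gave 0.022 to 0.067. Of 10 smooth muscle markers 3 were measured. Besides KCNMB1 these were TAGLN, which differed by 0.50 ± 0.43 (limma unadjusted p = 0.024), and MYH11, at -0.55 ± 0.92. The mean of the 3 ran from 6.48 to 7.23 in IUGR and from 6.55 to 6.99 in controls, and their part in the KCNMB1 value was not tested.

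KCNE subunits are small membrane proteins that change the gating of potassium channel pores. KCNE1, partner of KCNQ1 in the slow delayed rectifier, ran from 6.58 to 7.47 with a median of 7.15 in IUGR ventricles, and from 6.62 to 7.34 with a median of 7.15 in control ventricles. The medians were equal to the digits given, and the difference was 0.011 ± 0.47 (95% interval -0.42 to 0.44). KCNE2 ran from 2.64 to 4.06 with a median of 3.34 in IUGR ventricles, and from 2.73 to 3.93 with a median of 3.15 in control ventricles from a dim probe. Its difference was 0.16 ± 0.76, with 4 of 5 probes above 0. KCNE4, also from a dim probe, differed by -0.018 ± 0.86. The KCNE genes thus lay on both sides of 0 with overlapping groups.

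**Figure D3:**
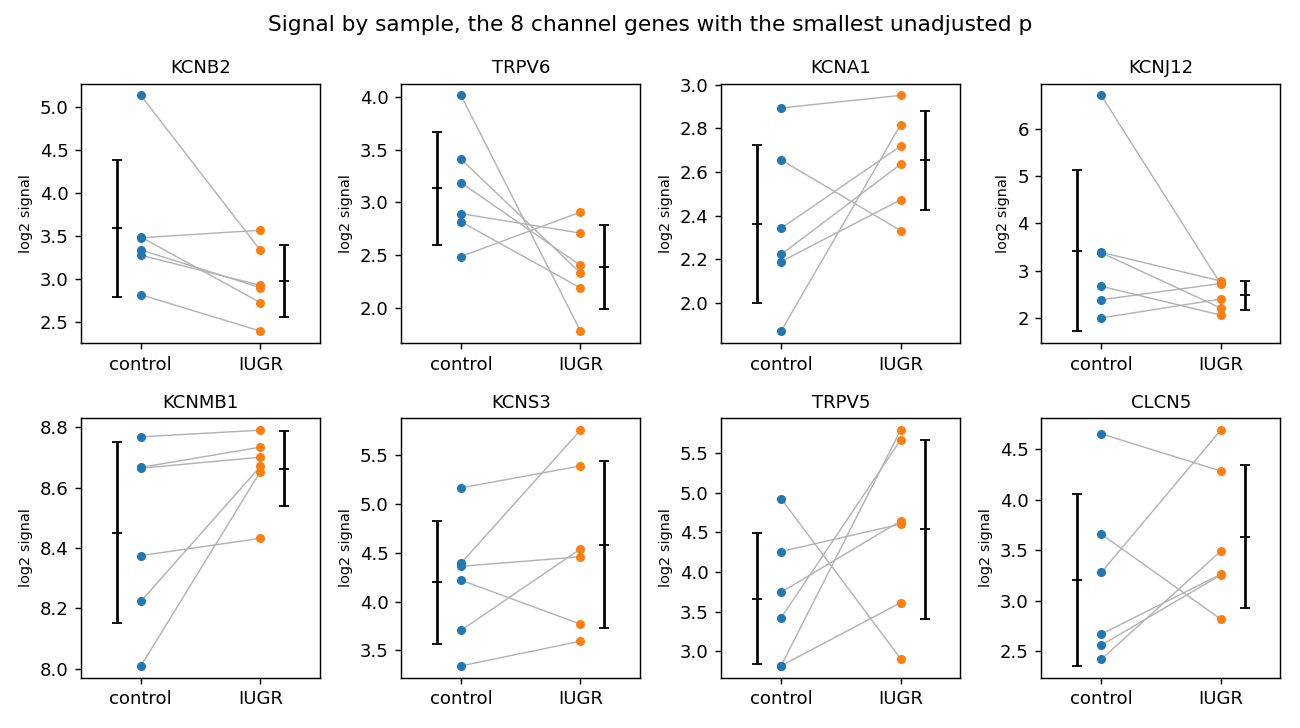
Log2 signal of every sample for the 8 channel genes with the smallest unadjusted limma p. Lines join the samples of a pair and the black bars give the mean ± SD of each group of 6. All 8 have overlapping groups, and single high control samples stand out for KCNB2 and KCNJ12.

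HCN4, the pacemaker channel, ran from 2.82 to 4.93 with a median of 3.63 in IUGR ventricles, and from 2.63 to 4.36 with a median of 3.65 in control ventricles. Its probe lay below the median, at percentile 42.5. The difference was 0.14 ± 1.09, and the second probe gave -0.38. SCN9A, a sodium channel pore of sensory neurons read at percentile 45.5, differed by 0.32 ± 0.75 and by 0.058 without pair 4. The subunits of the epithelial sodium channel differed by 0.010 ± 0.67 (SCNN1A), -0.068 ± 0.22 (SCNN1B) and 0.23 ± 0.75 (SCNN1G). Of these, SCNN1G had a dim probe, at percentile 30.8. The interval for SCNN1B was -0.34 to 0.21. Probes of SCNN1B split evenly, 3 above and 3 below 0, while 5 of 6 SCNN1A probes lay above it.

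CLC proteins are chloride channels of the plasma membrane or chloride-proton exchangers of endosomes and lysosomes. CLCN7, the lysosomal exchanger, was the least variable of the 42 genes, with a span of 0.32 log2 over 12 arrays. It differed by 0.034 ± 0.065, higher in IUGR in 5 of 6 pairs (95% interval -0.18 to 0.25). CLCN3, an endosomal exchanger present in heart muscle, ran from 4.64 to 5.79 with a median of 5.46 in IUGR ventricles, and from 4.88 to 5.55 with a median of 5.44 in control ventricles. The IUGR values reached beyond the control values at both ends, and the difference was 0.0012 ± 0.23 (95% interval -0.28 to 0.28). CLCN5, known from kidney endosomes, ran from 2.82 to 4.69 with a median of 3.38 in IUGR ventricles, and from 2.42 to 4.65 with a median of 2.97 in control ventricles. It differed by 0.43 ± 0.86, by 0.68 without pair 3 and by 0.23 without pair 2, and both of its probes were above 0. CLCN6 differed by 0.15 ± 0.87, and its second probe by -0.066. CLCN5 and CLCN6 were read by probes below the median, at percentiles 39.4 and 33.4. CLCN2, a channel of the plasma membrane, had the only mean below 0 of the 5, -0.15 ± 0.30, and was lower in 4 of 6 pairs.

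TRP channels are cation channels opened by lipids, heat, chemicals or a loss of store calcium. Of 5 measured, 4 had a mean below 0, and their SDs over the pairs had a median of 1.33, against 0.635 for all 42. TRPV5 and TRPV6 are the 2 closely related calcium channels of epithelia, and they lay on opposite sides. TRPV6 ran from 1.78 to 2.91 with a median of 2.37 in IUGR ventricles, and from 2.49 to 4.01 with a median of 3.04 in control ventricles. All 6 IUGR values lay under the control median, although the ranges overlapped. The difference was -0.75 ± 0.90, lower in 5 of 6 pairs (limma unadjusted p = 0.0514, adjusted p = 0.982), from 1 probe at percentile 19.6, and -0.45 without pair 6. TRPV5 ran from 2.91 to 5.79 with a median of 4.62 in IUGR ventricles, and from 2.82 to 4.92 with a median of 3.58 in control ventricles. From a probe below the median, at percentile 46.5, it was higher in IUGR in 5 of 6 pairs, by 0.87 ± 1.73. This was the highest mean of the 42, while its other 2 probes gave -0.30 and 0.14. Pair 3 went the other way at -2.02, and without it the mean was 1.45. TRPV5 read 2.82 in control replicates 5 and 6, and TRPV6 the same in control replicate 5. The part of background in such values was not tested. Whether the probes tell TRPV5 from TRPV6 was not tested, since probe sequences were not used here.

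The 4 probes of TRPC1, a channel linked to calcium entry after store release, were all below 0, from -1.10 to -0.13, with -0.18 ± 0.98 for the brightest. That probe was above 0 in 4 of 6 pairs, and its mean turned to 0.19 without pair 2. TRPC5 differed by -0.35 ± 1.48, with opposite extremes of 2.03 in pair 4 and -2.47 in pair 3. TRPC5 and TRPV1 were read by probes below the median, at percentiles 33.1 and 30.7. TRPV1, the receptor for heat and capsaicin in sensory nerves, differed by -0.20 ± 1.33 and by 0.29 without pair 6, whose control sample stood at 5.03. Control replicate 6 is the sample with the high liver marker mean given above, whose part was not tested.

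**Figure D4:**
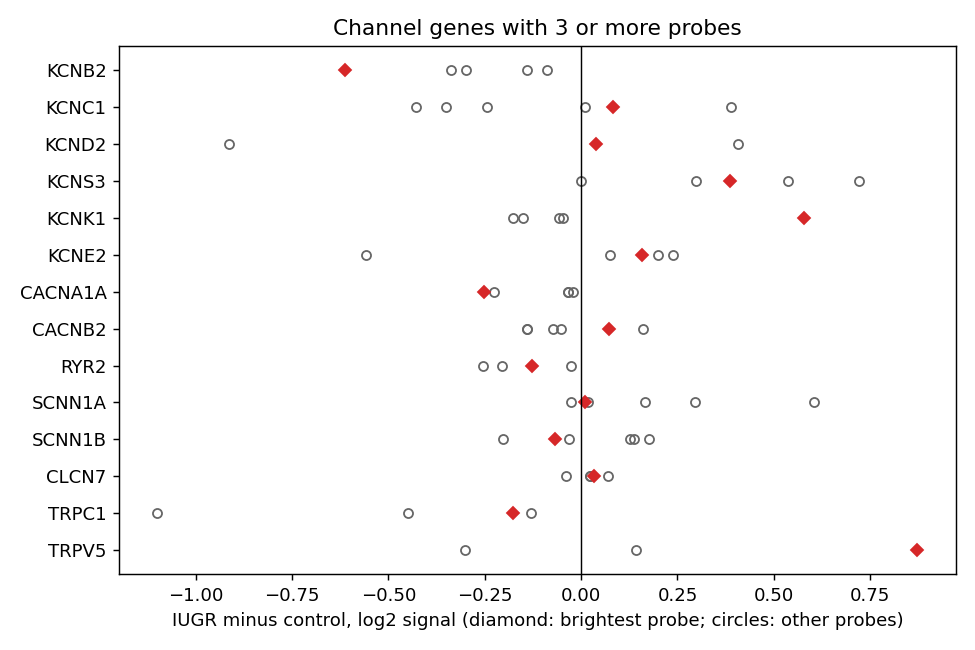
Mean IUGR minus control difference (log2) of every probe for the channel genes with 3 or more probes. Diamonds mark the brightest probe of a gene and open circles its other probes. All probes of KCNB2, RYR2, CACNA1A and TRPC1 lie below 0 and all of KCNS3 above it, while those of KCND2, KCNC1 and CACNB2 lie on both sides.

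Of the 27 channel genes with several probes, 13 had all probes on 1 side of 0 and 14 did not. When the probes of each gene were averaged, 2 genes had an unadjusted limma p under 0.05, KCNB2 at -0.30 and KCNS3 at 0.39, and none passed the adjusted threshold. These are the pore and the silent subunit of 1 channel family, seen after the values were known, and they lay on opposite sides.

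Differences between the 6 pairs, whatever the group, were examined with an F test of the pair terms in the same limma model, chosen after the data had been examined. None of the 42 genes passed an adjusted p of 0.05 (lowest adjusted p = 0.11), against 65 of 43603 probes (0.149%) and 0% of the 591 genes. At an unadjusted p under 0.05 there were 7 of the 42 genes, 16.7%, which is the background level (16.1% of all genes), so the channel genes did not stand apart. The 7 were KCNA10, KCNC1, SCNN1B, CACNA1E, CLCN3, KCNS3 and KCNK10. The values of the 4 with the smallest p are given as a description, since that p chose them. KCNA10, a potassium channel pore known from kidney and inner ear, spanned 2.69 log2 over the 12 arrays, and the SD of its difference over the pairs was 0.39 (limma F test across all probes, unadjusted p = 0.000677, adjusted p = 0.11). Its IUGR and control signals were 2.19 and 2.64 in pair 2 and 4.88 and 4.71 in pair 3, which were the lowest and the highest pair.

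KCNC1 was highest in pairs 3 and 4, at 5.48 and 5.07 in pair 3 and 5.51 and 4.98 in pair 4 for IUGR and control, and the other 8 samples did not exceed 4.01. CACNA1E was highest in the same pairs, at 4.26 and 4.09 in pair 3 and 5.03 and 4.24 in pair 4, but its partners also differed, by 0.79 in pair 4 and -0.66 in pair 5. SCNN1B was highest in both samples of pair 1, at 7.44 and 7.80, while the other 10 lay between 6.10 and 6.79. These values are those of the brightest probes, which for KCNA10, KCNC1 and CACNA1E lay below the median, at percentiles 44.1, 46.7 and 42.1. The other probes of KCNC1 had mean signals of 2.41 to 3.21 and that of CACNA1E 2.85, and their values by pair are not given here. What the partners share, whether litter, day or array, is not stated, and its part was not tested.

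**Figure D5:**
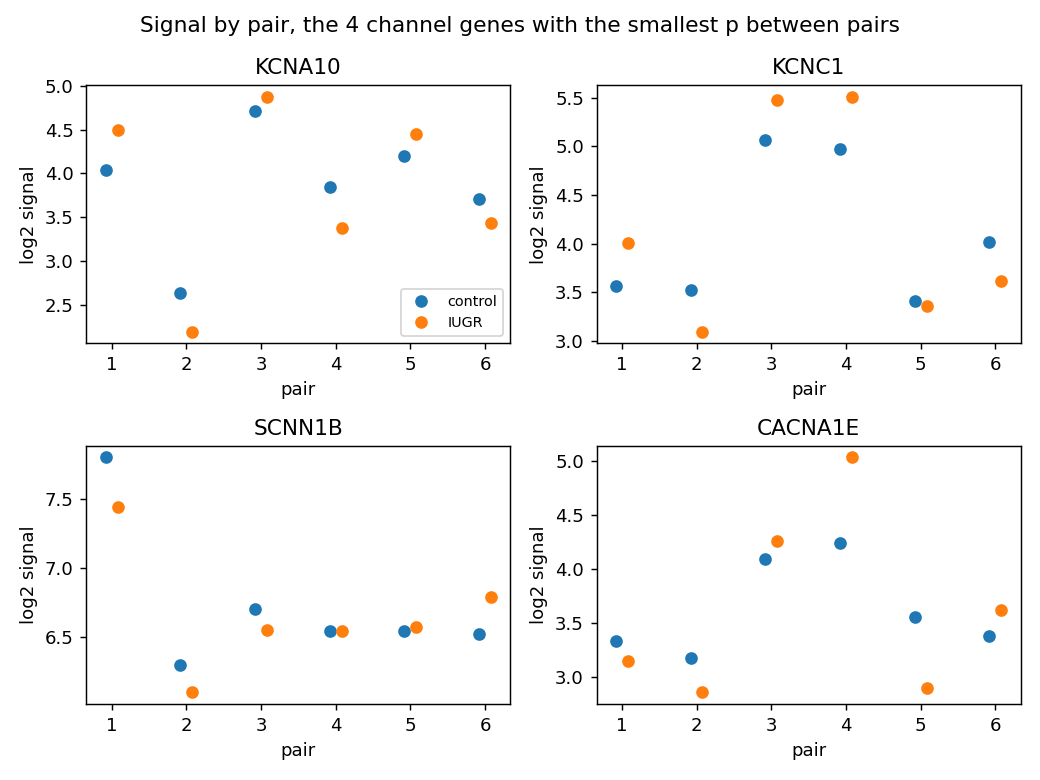
Log2 signal of the IUGR and the control sample in each of the 6 pairs for the 4 channel genes with the smallest F test p between pairs. The genes were chosen for that p, and none passed the adjusted threshold. KCNC1 and CACNA1E are highest in pairs 3 and 4 and SCNN1B in pair 1, and the partners of CACNA1E lie apart in pairs 4 and 5.

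By pair, the median difference of the 42 genes took either sign. It was -0.059, -0.13 and -0.19 in pairs 1 to 3 and 0.13, 0.085 and 0.022 in pairs 4 to 6. From 18 to 27 of the 42 genes were higher in the IUGR partner, 42.9 to 64.3%, against 46.4 to 57.2% of all 591 genes. Over all genes the medians by pair ran from -0.030 to 0.071, a narrower range than that of the 42. The 42 are fewer genes and more often read by dim probes, so their medians are less precise. In pairs 1 to 4 the median of the 42 and that of all genes had opposite signs.

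Genes that work beside these channels gave no call either, which follows from 0 calls among all 43603 probes. Of 32 ion pumps and exchangers listed, 8 were measured, 5 above and 3 below 0, with a median difference of 0.060 and 0 past the adjusted threshold. The smallest p among them was that of SLC9A3, the sodium-proton exchanger of epithelia, at 0.44 ± 0.42 (limma unadjusted p = 0.0342). Of 25 calcium handling proteins of the sarcoplasmic reticulum 6 were measured, 4 above and 2 below 0, with a median of 0.23 and 0 past the threshold. TRDN (triadin), which anchors calsequestrin to the ryanodine receptor, had the smallest p of these, at 0.50 ± 0.38, higher in IUGR in 5 of 6 pairs (limma unadjusted p = 0.0162, adjusted p = 0.982). Of its 5 probes 3 lay above and 2 below 0. Those other than the brightest gave -0.16 to 0.31, and the mean of all 5 was 0.19. Of 17 gap junction genes 3 were measured, 1 above and 2 below 0, with 0 past it; GJA1, the main ventricular connexin, differed by -0.56 ± 1.34. Of 75 other channel genes, KCNIP2 and KCNJ8 among them, 10 were measured, 8 above and 2 below 0, with a median of 0.048 and 0 past it. KCNIP2, whose value is given above, had the smallest p of these (limma unadjusted p = 0.038), and KCNJ8, the pore of an ATP-sensitive potassium channel, differed by 0.15 ± 0.083, higher in 6 of 6 pairs (limma unadjusted p = 0.158).

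Across the table, any 2 arrays correlated at 0.957 to 0.978 over the probes. No other tissue was measured, so the tissue label was not tested. Of 24 cardiomyocyte markers 4 were measured (MYH6, CKM, NPPA and RYR2), and RYR2 is itself 1 of the 42 genes. Their mean level ran from 13.29 to 14.88 in IUGR and from 13.22 to 14.03 in controls. Atrial markers, 3 of 10 measured with NPPA again among them, ran from 7.63 to 11.07 and from 7.17 to 9.30. The highest mean of both lists was in IUGR replicate 3. Haemoglobin genes, 2 of 13 red blood cell markers, were higher on average in the IUGR partner in 6 of 6 pairs, by 0.19 to 0.35, with a mean of 0.26 ± 0.060. HBA alone differed by 0.41 ± 0.31, higher in 6 of 6 pairs (limma unadjusted p = 0.0224, adjusted p = 0.982). HBB2 differed by 0.12 ± 0.29, higher in 4 of 6 pairs. Each gene alone thus varied more over the pairs than their mean did. Of 14 endothelial markers 6 were measured, 4 above and 2 below 0, and their mean differed by 0.082 ± 0.38. KDR was the only 1 of these that was higher in 6 of 6 pairs, by 0.43 ± 0.30 (limma unadjusted p = 0.0169, adjusted p = 0.982). The 2 below 0 were VCAM1 at -0.15 ± 0.21 and EDN1 at -0.11 ± 0.28. Of the 42 channel genes KCNMB1 alone had this sign in every pair. The part of blood and vessels in the channel values was not tested. None of the marker lists for other tissues held a gene past the adjusted threshold, which no probe of the table passed.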

How the data were processed

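Single-colour arrays of rabbit transcripts were measured for 12 fetal heart ventricles, 6 IUGR and 6 control. The deposited values are log2 probe signals. Per the submitters' processing notes, RMA (no version stated) was the authors' method. That the base is 2 follows from the highest value, 15.83. RMA brings arrays to nearly 1 distribution, and a difference is thus measured against most other probes. For scanner software, background method and probe filters, details were not given in the sources used here. The table holds 43603 probes, of which 1673 (3.84%) have a gene symbol, updated through RefSeq accessions, symbols and synonyms (assembly mOryCun1.1) to 591 genes; 38 of the 42 channel genes matched by accession, 3 by symbol and 1 by synonym. No probe has several genes. Sequences and genome coordinates were not used here. Each gene was read from its brightest probe (highest mean signal of the 12 arrays).

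Values were used as deposited, without a filter. They were fitted with limma 3.58.1 in R 4.3.3 (lmFit, eBayes, two-sided, group plus pair), with Benjamini-Hochberg adjustment over all probes and a threshold of 0.05. The block follows the labels, and same-numbered samples deviated together: their deviations correlated at 0.129 to 0.254, and all 12 arrays correlated best with their own partner. Intervals are 95% intervals of the moderated fit. Exact permutation tests used the 64 sign changes of the 6 pairs. Described in full are the 8 genes of smallest p, any with 1 sign in 6 pairs, and those of the heart list. Members, lists, tests and alternatives were chosen with earlier results of these data known.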

Additional observations from a re-analysis of the deposited data

Results flagged for a closer look

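Dixon's test, run on each gene in each group of 6, marked 1 sample as distant in 9 of 84 groups, where chance gives about 1 in 20, or 4.2. KCNB2 in control replicate 6 stood at 5.13 log2 (the others 2.82 to 3.49), and its mean difference went from -0.61 to -0.38 without that pair. TRPV1 in control replicate 6 stood at 5.03 log2 (the others 2.49 to 3.07), and its mean difference went from -0.20 to 0.29 without that pair. Both values come from 1 heart. KCNJ12 in control replicate 2 stood at 6.71 log2 (the others 2.00 to 3.39), and its mean difference went from -0.94 to -0.33 without that pair. CLCN6 in control replicate 5 stood at 4.07 log2 (the others 2.77 to 2.99), and its mean difference went from 0.15 to 0.39 without that pair. CACNA1A in control replicate 4 stood at 7.94 log2 (the others 5.57 to 6.29), and its mean difference went from -0.25 to 0.0047 without that pair. The control sample of pair 1 was high for 2 subunits of the epithelial sodium channel: SCNN1B stood at 7.80 (the others 6.30 to 6.70; -0.0087 without that pair) and SCNN1G at 3.85 (the others 2.38 to 2.90; 0.41 without that pair). The IUGR partner of that SCNN1B sample was also high. TRPC5 in IUGR replicate 4 stood at 5.09 log2 (the others 2.19 to 2.72), and its mean difference went from -0.35 to -0.83 without that pair. CACNA2D1 in IUGR replicate 6 was low, at 6.83 (the others 7.15 to 7.28), with a difference of 0.023 without that pair. Of the 9, 7 are in control samples, and no explanation was tested.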

How the results depend on the processing

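The count of calls at an adjusted p of 0.05 was 0, for channel genes and for all probes, in each alternative: without the replicate block (0 called), without probes below the median (15 channel genes left), with an intensity trend and robust prior, with the ordinary paired test, with other probes of a gene, with quantile normalization or median centring, or without any 1 pair. At an unadjusted limma p under 0.05 the count of 1 ran from 0 to 5 over fits that left out 1 pair (the 5 came without pair 3). It was 2 with the mean of all probes or the second brightest probe, and 0 among the 15 brighter genes and in the ordinary paired test; the cause was not tested. The median difference of the channel genes, 0.022, was -0.031 for the 15 brighter genes, -0.0072 with the mean of all probes, -0.028 with the second brightest probe and 0.015 to 0.056 without 1 pair, all within the spread of 0.126 between pairs. The F test between pairs, whose alternatives were also chosen after seeing the data, called 0 channel genes under each of them, with a lowest adjusted p of 0.0501 (without dim probes) to 0.242 (without pair 3). Over all probes an unadjusted p under 0.05 came 1562 times with the block and 857 times without it. The mean difference of 19 of the 42 genes kept its sign throughout. Other signs came with the mean of all probes (CACNA1E -0.033, CACNB2 -0.029, CACNB3 0.13, HCN4 -0.12, KCNC1 -0.090, KCND2 -0.16, KCNK10 -0.042, SCNN1B 0.024), with the second brightest probe (CACNA1E -0.072, CACNB2 -0.051, CACNB3 0.33, CLCN6 -0.066, HCN4 -0.38, KCNC1 -0.35, KCND2 -0.91, KCNK1 -0.15, KCNK10 -0.13) and with quantile normalization (CLCN3 -0.00057). When 1 pair was left out the sign turned for 19 genes, which ran over these ranges: CACNA1A -0.38 to 0.0047, CACNA1E -0.15 to 0.14, CACNA2D1 -0.076 to 0.023, CLCN3 -0.076 to 0.049, CLCN6 -0.11 to 0.39, HCN4 -0.22 to 0.36, KCNA10 -0.15 to 0.030, KCNC1 -0.0059 to 0.19, KCND2 -0.12 to 0.22, KCND3 -0.065 to 0.26, KCNE1 -0.13 to 0.16, KCNE2 -0.0045 to 0.40, KCNE4 -0.26 to 0.24, KCNJ2 -0.13 to 0.066, KCNK10 -0.044 to 0.14, SCNN1A -0.17 to 0.14, TRPC1 -0.32 to 0.19, TRPC5 -0.83 to 0.073, TRPV1 -0.48 to 0.29. The precision is limited by the number of pairs, 6.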
